A study of Mus musculus with 12 samples.

Results

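The genes described here are those of the unfolded protein response and of the integrated stress response, 33 genes of the 54532 in the count table. They were taken by name from lists of endoplasmic reticulum (ER) chaperones, ER stress sensors and transcription factors, factors of ER-associated degradation, and targets of the transcription factor Atf4, chosen with earlier results of these data known, and the rule itself uses no measured value. RNA was sequenced from whole kidneys of 12 C57BL/6 mice, all 18 days old, in 4 groups of 3. Noncystic mice carried Pkd1 RC/F without Cre and either Pkd2 +/+ (mice 19 to 21) or Pkd2 D17/D17 (mice 22 to 24). Cystic mice carried KspCre and Pkd1 RC/F, which leaves Pkd1 RC/- in the recombined cells, with Pkd2 +/+ (mice 25 to 27) or Pkd2 D17/D17 (mice 28 to 30). RC is a missense allele of Pkd1 that every mouse carried, noncystic mice included, F is a floxed allele, and D17 is a CRISPR/Cas9 deletion of the miR-17 binding motif from the 3′-UTR of Pkd2. KspCre is driven by the Ksp-cadherin promoter, which is active in tubule epithelium, so other kidney cells keep the floxed allele. The noncystic groups therefore differ from the cystic groups in Cre as well as in Pkd1. Per the paper, breeding the edited mice with Pkd1 F/F mice eventually gave all 4 genotypes. The labels do not give the sex of the mice.

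Proteins that enter the ER are folded there by chaperones such as Hspa5 (BiP). When unfolded protein accumulates, the sensors Ern1 (IRE1), Eif2ak3 (PERK) and Atf6 start the unfolded protein response: Ern1 splices Xbp1 mRNA, Atf6 is cut to release a transcription factor, and Eif2ak3 phosphorylates eIF2. Phosphorylated eIF2 lowers translation in general and favours translation of Atf4, the shared step of the integrated stress response, which other eIF2 kinases start on amino acid shortage, viral RNA or heme deficiency. Xbp1 splicing, Atf6 cleavage and Atf4 translation do not change the number of reads on those genes, so gene counts do not measure them. In the kidney, tubule cells make and sort large amounts of membrane and secreted protein, and these pathways have been studied there in injury.

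Total counts ran from 18800307 to 24453033 per mouse, with 16 to 21575 counts per mouse on each of the 33 genes. Levels are given as CPM, the read count relative to library size, with TMM factors (edgeR's correction for library composition). These factors ran from 0.933 to 0.972 for noncystic mice and from 1.04 to 1.08 for cystic mice. Without them, with library totals alone, the log2 fold change of the median gene between cystic and noncystic kidneys rose by 0.158 with Pkd2 +/+ and by 0.151 with Pkd2 D17/D17, so changes of that size in cystic kidneys depend on the scaling. Pkd2, the edited gene, ran from 194 to 219 and from 213 to 233 CPM in the noncystic and cystic Pkd2 +/+ mice, and from 271 to 286 and from 307 to 337 CPM in the D17/D17 mice. Mouse 24, noncystic Pkd2 D17/D17, had the lowest value of its group in 12 of 13 ER chaperones, and the results for which it decides a value are also given without it. None of the markers of proximal tubule, thick ascending limb, collecting duct and podocytes was at 0 in every mouse. The same held for the 5 listed markers of pancreas, but Cpa1, Prss2, Pnlip and Ctrb1 had group means of at most 0.057 CPM. Only Cela1, at group means of 37.9 to 82.4 CPM, was well above 0. A value above 0 in some mouse therefore does not test the whole-kidney label.

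Because the sensors act through short DNA motifs, the reference promoters were read for them. The sites found in genes that passed the test in any comparison described below are printed. The windows are RefSeq sequences of GRCm38.p6, from 250 bases before to 50 bases after a gene start, and 29 of the 33 genes had one (Manf, Derl1, Hyou1 and Atf6 did not). Both strands were searched. The ER stress element (ERSE), bound by Atf6 and Xbp1 with NF-Y, was searched as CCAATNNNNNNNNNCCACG, and 9 of the 29 genes held it: Hspa5, Hsp90b1, Calr, Canx, Pdia6, Dnajc3, Creld2, Derl3 and Syvn1. Among all 27025 genes with a window 37 held it, a share of 0.137%. The sites of 3 co-chaperone or chaperone genes read as follows, 5′ to 3′, with the fixed letters of the motif in capitals.
Hspa5: tcaCCAATcggaggcctCCACGacg
Dnajc3: caaCCAATcagcgccaaCCACGacc
Creld2: ggaCCAATtgaggctcgCCACGaga
The Hspa5 site lies at chr2:34772022-34772046 on the forward strand and the Dnajc3 site at chr14:118937824-118937848 on the forward strand. The Creld2 site lies at chr15:88819517-88819541 on the reverse strand, opposite to the gene.

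A related element, ERSE-II, was searched as ATTGGNCCACG, which has CCACG in common with ERSE and, on the opposite strand, its CCAAT. It was in 12 genes of 27025 (0.0444%) and in 1 of the 29, Herpud1. The unfolded protein response element TGACGTGG, which has the letters CGTGG, the opposite strand of CCACG, in common with ERSE, was in 0 of the 29 and in 0.714% of all genes. The composite element read by Atf4 with a C/EBP partner (CARE) was searched as TGATGNAA, and 4 of the 29 held it, Trib3, Asns, Chac1 and Herpud1, against 4.51% of all genes. These sites are shown because Herpud1 and these Atf4 targets had the largest changes in cystic kidneys.
Herpud1 (ERSE-II): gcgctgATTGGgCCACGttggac
Herpud1 (CARE): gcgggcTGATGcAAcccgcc
Trib3 (CARE): cccggcTGATGtAAacctga
Asns (CARE): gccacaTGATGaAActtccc
Chac1 (CARE): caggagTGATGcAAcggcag
Herpud1 has its ERSE-II at chr8:94386371-94386393 on the forward strand and its CARE at chr8:94386311-94386330 on the reverse strand. The other 3 lie at chr2:152344033-152344052 (forward), chr6:7693219-7693238 (reverse) and chr2:119351043-119351062 (reverse). A match describes the reference sequence and is not evidence of binding, and the absence of a match concerns only these letters and windows. The genes were listed as members of these pathways, so a higher share of motifs among them than among all genes is not an independent result.

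Compared per kilobase of exon, the mean level over the 12 mice was highest for Calr, an ER chaperone of glycoproteins, at 293 CPM per kb, followed by Pdia3 at 206 and Hspa5 at 182. Herpud1, a membrane protein of the degradation complex, was the fifth of the 33 at 103 CPM per kb. The lowest levels were those of Trib3 (2.01 CPM per kb), Chac1 (1.63) and Derl3 (0.831). Between mice of a group the coefficient of variation had a median of 5.28% over the chaperones, 8% over the sensors and transcription factors, 5.24% over the degradation factors and 10.8% over the Atf4 targets, with the highest value of 48.5% among the Atf4 targets.

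To find which of these genes changed with cystic disease, cystic Pkd2 +/+ kidneys were compared with noncystic Pkd2 +/+ kidneys. Of the 7 listed Atf4 targets 5 rose, while Herpud1, Derl1, 3 chaperone genes and Ddit3, a transcription factor that itself lies downstream of Atf4, fell. The difference between the roles was not tested. In all, 5 of the 33 genes rose and 6 fell at an adjusted p under 0.05 (edgeR, quasi-likelihood test, Benjamini-Hochberg over the 24642 genes tested). All 33 passed the cutoff on low counts. Of all genes tested, 16.9% rose and 14.2% fell, so that the 15.2% and 18.2% of the 33 genes are near the background. The median log2 fold change was -0.06 over the 33 genes and 0.02 over all genes tested. With library totals the 33 genes split into 9 that rose and 2 that fell, Herpud1 and Creld2, while 25.4% of all genes rose and 10% fell.

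**Figure D1:**
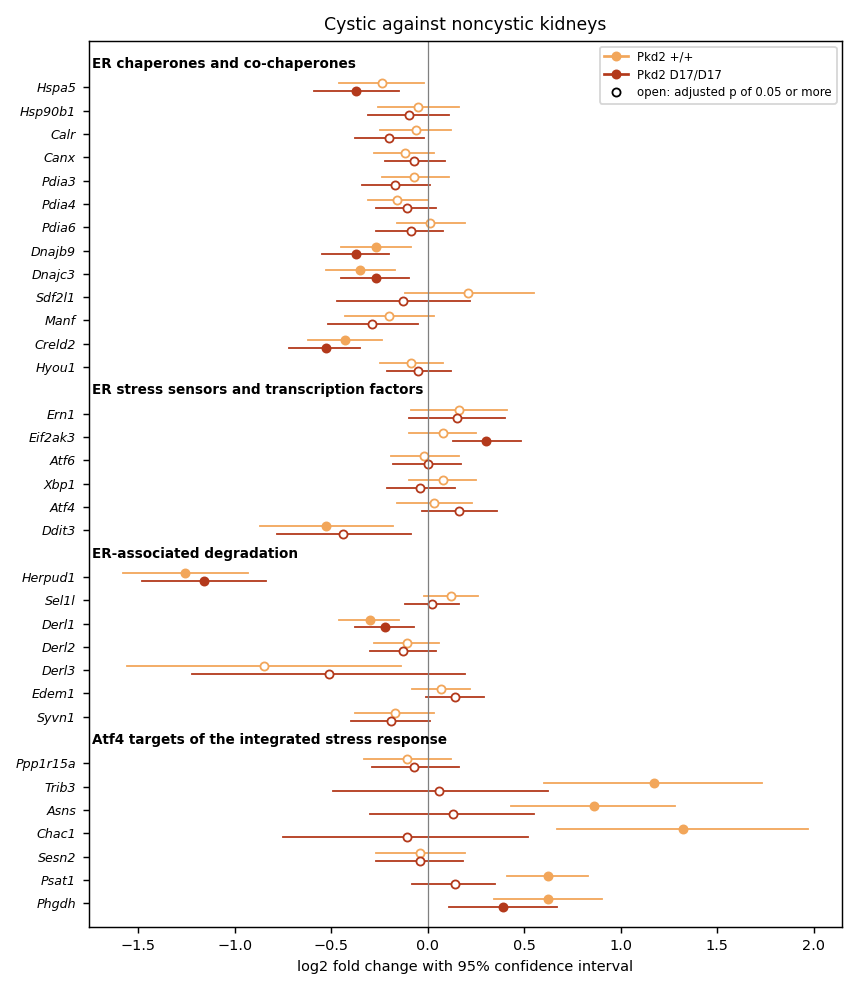
Log2 fold change (x axis) of each of the 33 genes (y axis, by role) between cystic and noncystic kidneys, with 95% confidence intervals; light points are Pkd2 +/+ mice, dark points Pkd2 D17/D17 mice, 3 mice per group, and filled points have an adjusted p under 0.05. Herpud1 lies far below 0 in both genotypes (-1.26 and -1.16), and Trib3, Asns and Chac1 lie above 0 with Pkd2 +/+ (1.17, 0.86 and 1.32) but near 0 with Pkd2 D17/D17. The difference between the genotypes did not pass the test for any of these genes. For Trib3 and Chac1 the D17/D17 values rest in part on mouse 24.

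Of the 13 ER chaperones and co-chaperones, 3 fell and 0 rose, while 14.2% of all genes fell. The median log2 fold change was -0.12 over the list. Values were below 0 for 11 of the 13, and for 11990 of all 24642 genes tested. That median is smaller than the shift of 0.158 between the scalings, so the signs of small changes in the list depend on the scaling. Creld2, an ER protein induced on stress that acts in disulfide exchange, stood at 95, 86.5 and 87.3 CPM in noncystic and at 70.9, 61.5 and 67 CPM in cystic mice. Every cystic mouse was below every noncystic mouse, with a difference of -0.43 on the log2 scale (standard error 0.09, adjusted p = 0.00107, edgeR). The share of all genes with groups apart is not given here, so such gaps do not add to the tests. Dnajc3 (p58IPK), a co-chaperone of Hspa5 that also inhibits eIF2 kinases, ran at 192, 176 and 188 CPM against 148, 155 and 134 CPM. The groups did not overlap, and Dnajc3 fell by 0.35 in log2 terms (SE 0.08, adjusted p = 0.00374, edgeR). Dnajb9 (ERdj4), a co-chaperone that holds Ern1 inactive through Hspa5, was at 58.7, 62.2 and 65 CPM in noncystic and at 50, 52 and 52 CPM in cystic mice. It fell by 0.27 on the log2 scale (standard error 0.08, adjusted p = 0.0196, edgeR), without overlap of the groups. With library totals Dnajc3 (-0.19, adjusted p = 0.0752) and Dnajb9 (-0.11, adjusted p = 0.334) did not pass the threshold, and Creld2 did (-0.27, adjusted p = 0.0265). Dnajb9 was also lost without mouse 21 or mouse 25.

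The other 10 chaperones, Hspa5, Hsp90b1, Calr, Canx, Pdia3, Pdia4, Pdia6, Sdf2l1, Manf and Hyou1, had log2 fold changes from -0.24 to 0.21 and did not pass the test. Hspa5, the main Hsp70 of the ER, had the smallest adjusted p of these 10, at 926, 855 and 931 CPM in noncystic and 756, 774 and 761 CPM in cystic mice (-0.24, 95% confidence interval -0.46 to -0.02, adjusted p = 0.0901, edgeR). Its groups did not overlap. Sdf2l1, which keeps folding clients of the Hspa5 machinery soluble, had the highest value of the list at 0.21 (95% confidence interval -0.12 to 0.55). Hsp90b1 shares 5.38% of its exon bases with genes on the same strand and 10.3% with a gene on the other strand, and Manf shares 8.85% with genes on the other strand. As the strand setting of the counting is not stated, their counts may include reads of those genes.

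Of the 6 sensors and transcription factors only Ddit3 (Chop), the pro-apoptotic factor downstream of Atf4, passed the test, and it fell. Its levels were 15.1, 14.5 and 13.3 CPM in noncystic and 8.63, 10.7 and 10.5 CPM in cystic mice, with all cystic mice lower (-0.53, standard error 0.16, adjusted p = 0.0195, edgeR). The call was lost with library totals (-0.37, adjusted p = 0.0904) and without mouse 19 or mouse 25. Ddit3 shares exon bases with Mars and Gm4189 on the other strand (4.73%), and a second Ddit3 identifier, whose 105 exon bases all lie inside the main gene, was listed at 0 in every mouse.

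The sensors and the other transcription factors overlapped between the groups. Ern1 stood at 23.9, 23.6 and 29.6 CPM in noncystic and at 32.4, 27.5 and 26.1 CPM in cystic mice (0.16, 95% confidence interval -0.09 to 0.41). Eif2ak3 was at 40.8, 39.4 and 43 CPM against 41.1, 47.1 and 41.6 CPM (0.08, interval -0.1 to 0.25). Its exons share 8.05% of their bases with a gene on the other strand. Atf6 was at 54.9, 55.3 and 65.9 CPM against 58.1, 61.6 and 54.1 CPM (-0.02, interval -0.19 to 0.16). For Xbp1 the levels were 202, 200 and 192 CPM against 189, 227 and 210 CPM (0.08, interval -0.1 to 0.25). Atf4 itself, whose targets are described next, was at 155, 171 and 142 CPM in noncystic and at 146, 161 and 172 CPM in cystic mice (0.03, interval -0.16 to 0.23). With library totals Eif2ak3 (0.23, adjusted p = 0.0344) and Xbp1 (0.23, adjusted p = 0.0302) passed the threshold.

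Among the 7 genes of ER-associated degradation, the route by which misfolded proteins leave the ER for the proteasome, 2 fell and 0 rose. Their median was -0.17, and 14.2% of all genes fell. Herpud1 (Herp), which organises the ubiquitin ligase complex and is itself short-lived, had the lowest log2 fold change of the 33 genes. It stood at 355, 306 and 391 CPM in the noncystic mice and at 179, 112 and 149 CPM in the cystic mice. The lowest noncystic mouse was thus well above the highest cystic mouse, and the level was 2.39-fold lower (log2 fold change -1.26, standard error 0.15, adjusted p = 7.22e-06, edgeR). Herpud1 stayed past the threshold in all 14 alternatives, with values from -1.43 to -1.1. In a kidney made of many cell types, fewer cells of a type and less RNA per cell cannot be told apart.

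Derl1, a channel component of the same route, was at 125, 132 and 121 CPM in noncystic and 101, 104 and 101 CPM in cystic mice. The groups lay apart, and Derl1 fell by 0.3 in log2 terms (SE 0.07, adjusted p = 0.00377, edgeR), but the call was lost with library totals (-0.14, adjusted p = 0.13). Derl3, a relative of Derl1 that is also a plasma cell gene, was the least abundant of the 33, with 1.53 to 2.91 CPM among noncystic mice and 0.783 to 1.7 CPM among cystic ones (-0.85, adjusted p = 0.0661, edgeR). It passed the threshold without mouse 21, without mouse 27 or with at least 10 counts required in every mouse. Sel1l, Syvn1 (the ligase Hrd1), Edem1 and Derl2 lay between -0.17 and 0.12, and of these Sel1l (0.27, adjusted p = 0.00332) and Edem1 (0.23, adjusted p = 0.0168) rose with library totals.

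**Figure D2:**
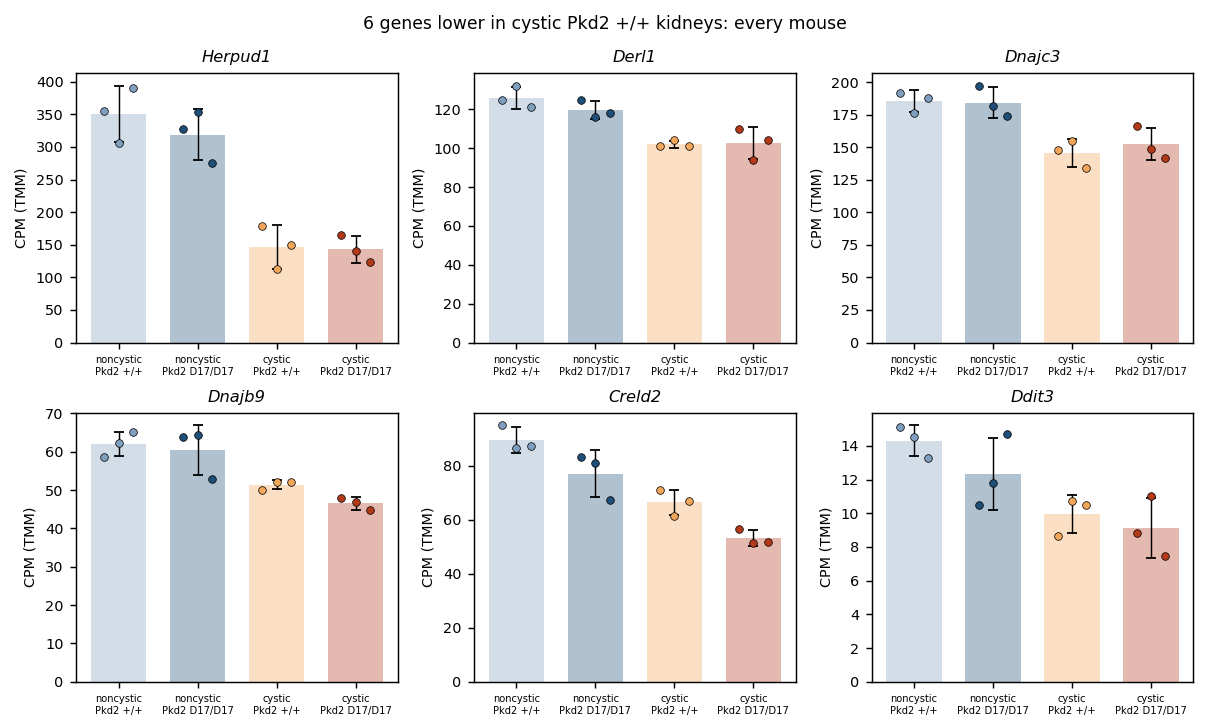
CPM (y axis, TMM-scaled, starting at 0) of the 6 genes that fell in cystic Pkd2 +/+ kidneys, in the 4 groups of 3 mice (x axis); points are mice, bars the mean and error bars the SD. Herpud1 runs from 276 to 391 CPM in the noncystic mice of both genotypes and from 112 to 179 CPM in the cystic mice of both.

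Of the 7 Atf4 targets, 5 rose and 0 fell (71.4%, against 16.9% of all genes), with a median log2 fold change of 0.62. The same 5 rose with library totals and in each of the other alternatives. Ddit3, downstream of Atf4, and Herpud1, with a CARE in its promoter window, were counted under other roles and fell. The list was chosen with earlier results of these data known, so its share is not an independent test of Atf4 activity. Trib3, a pseudokinase that binds Atf4 and Ddit3, stood at 2.60, 2.85 and 2.34 CPM in noncystic and at 6.08, 6.27 and 5.13 CPM in cystic mice. The level was 2.24-fold higher with no overlap (log2 fold change 1.17, standard error 0.27, adjusted p = 0.00268, edgeR). Chac1, which breaks down glutathione, was at 1.19, 2.05 and 1.32 CPM against 4.03, 3.38 and 4 CPM, 2.5-fold higher (1.32, standard error 0.31, adjusted p = 0.00302, edgeR). It was counted on 23 to 104 reads per mouse, among the lowest counts of the 33 genes, and its interval runs from 0.67 to 1.97.

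The other 3 that rose make amino acids. Asns, asparagine synthetase, was at 7.79, 10.7 and 5.75 CPM in noncystic and at 11.7, 15.3 and 16.9 CPM in cystic mice (0.86, standard error 0.20, adjusted p = 0.00322, edgeR). Phgdh, which starts serine synthesis, was at 57.6, 73.8 and 55.7 CPM against 86.8, 106 and 95.1 CPM (0.62, standard error 0.13, adjusted p = 0.0014, edgeR). Psat1, the next enzyme of that route, was at 49.2, 46.2 and 39.4 CPM against 61.3, 77.2 and 68.7 CPM (0.62, standard error 0.10, adjusted p = 0.000142, edgeR). All cystic mice were above all noncystic mice for each of the 5 genes, which does not add to the test. The remaining targets did not pass the test: Ppp1r15a (Gadd34), the phosphatase subunit that reverses eIF2 phosphorylation, had -0.11 (interval -0.33 to 0.12), and Sesn2, a leucine sensor upstream of mTORC1, had -0.04 (interval -0.27 to 0.19).

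**Figure D3:**
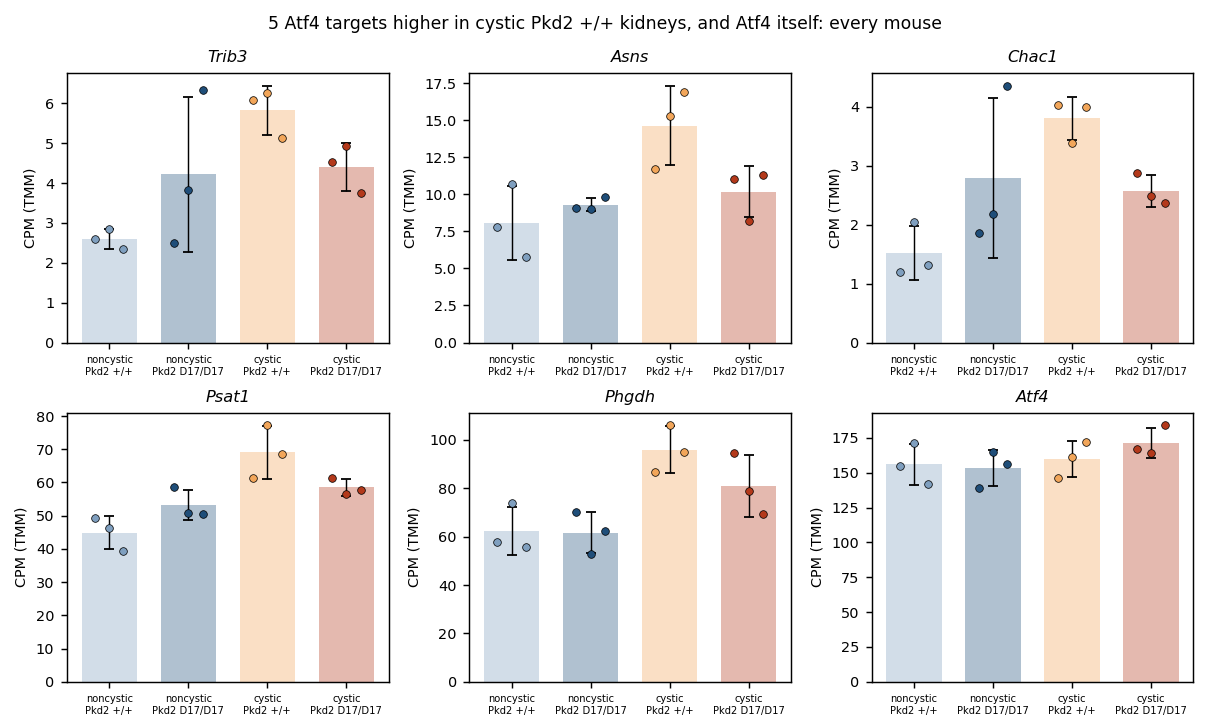
CPM (y axis, TMM-scaled, starting at 0) of the 5 Atf4 targets that rose in cystic Pkd2 +/+ kidneys and of Atf4, in the 4 groups of 3 mice (x axis); points are mice, bars the mean and error bars the SD. Cystic Pkd2 +/+ mice lie above noncystic Pkd2 +/+ mice in the 5 targets and overlap them in Atf4, and mouse 24, noncystic D17/D17, has the highest Trib3 (6.33 CPM) and Chac1 (4.35 CPM) of all 12 mice.

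Marker RNA of several cell types differed with cystic disease too, and the shares of cells were not measured. Between noncystic and cystic Pkd2 +/+ mice the summed level of 10 proximal tubule markers went from 8650 to 10700 CPM down to 3300 to 4600 CPM, with all 10 markers lower. Summed macrophage markers (7 of 7 higher) went from 162 to 169 CPM up to 401 to 528 CPM, and fibroblast markers (5 of 7 higher) from 2120 to 2290 CPM up to 3500 to 5140 CPM. Collecting duct markers (4 of 9 higher, 2 lower) had sums of 1410 to 1550 and 2090 to 3740 CPM. Plasma and B cell markers, without Derl3, did not move together (1 of 7 higher, Ighm, and 3 lower). Their sum ran from 30.2 to 42.5 CPM in the noncystic group and from 24.3 to 30.4 CPM in the cystic group. Of the other lists, 5 of 7 markers of thick ascending limb and distal tubule, 4 of 5 of podocytes, 4 of 6 of endothelium and 5 of 5 of red blood cells fell. Cldn16 of the thick ascending limb list (0.33) and Synpo of the podocyte list (0.52) rose. The part of these cell types in the changes of the 33 genes was not tested.

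Genes of the same pathways outside the 33, taken from further lists, were counted in the same test. Of 29 other Atf4 and Ddit3 targets tested, 12 rose (41.4%, against 16.9% of all genes), 4 fell (13.8%, against 14.2%) and the rest did not pass the test, with a median of 0.3. Those with the smallest p that rose were Aldh18a1, for proline synthesis (1.64), Pmaip1, which encodes the BH3 protein Noxa (2.54), and the arginine transporter Slc7a1 (1.38). Cth, of cysteine synthesis (-1.3), Slc3a2, the heavy chain of amino acid transporters (-0.66), and Shmt2, of mitochondrial serine use (-0.51), fell. Of 20 cytosolic aminoacyl-tRNA synthetases, 7 rose and 0 fell (Vars 0.76, Iars 0.52, Tars 0.44), against 16.9% and 14.2% of all genes. With library totals 17 rose, a scaling under which more of all genes rose too.

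The other ER lists had genes that rose and genes that fell, and with library totals more of the folding, degradation and export genes rose and fewer fell. The same shift held for all genes tested, of which 16.9% rose and 14.2% fell with TMM factors. Of 25 further folding and glycan-processing enzymes, 2 rose (Dnajc10 0.53, Uggt1 0.21) and 6 fell (led by Ero1b, an ER oxidase, at -0.62), but with library totals 6 rose and 3 fell. Of 22 further degradation factors, 4 rose and 7 fell (led by Marchf6, at -0.5), against 7 and 5 with library totals. ER translocation and export genes had 6 of 29 higher (Sec24d 0.73, Sec61a1 0.45, Kdelr3 0.93) and 3 lower, led by Sec62 (-0.56), and with library totals 10 higher and 1 lower. Of 15 genes for eIF2 kinases, phosphatase subunits and eIF2B, 2 rose, led by the kinase of viral RNA Eif2ak2 (0.75), and 2 fell, led by the phosphatase subunit Ppp1r15b (-0.36), while with library totals 6 rose and 1 fell. The 11 other ER membrane-bound factors and sensors had 2 higher and 1 lower (5 and 1 with library totals), and the 15 cytosolic heat shock genes 2 higher and 3 lower (3 and 2). Chaperones and proteases of the mitochondria, the counterpart of the ER set, fell in 11 of 13 (median -0.51, led by Grpel1, at -0.71, and Hspd1, at -0.67), and in 10 of 13 with library totals. The 12 immediate early genes, which respond within minutes of handling as well as to signalling, had 8 higher (Egr2 3.98, Egr1 2, Junb 1.28) and 2 lower. Their part in the changes of the 33 genes was not tested.

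Cystic disease was then compared between the mice with the deletion, cystic against noncystic Pkd2 D17/D17. Of the 6 genes that fell with Pkd2 +/+, 5 fell here too and Ddit3 did not pass the test, and of the 7 Atf4 targets 1 rose. In all, 2 of the 33 genes rose and 6 fell, or 6.06% and 18.2%, against 12.8% and 10.2% of all genes. With library totals 5 rose and 2 fell, Herpud1 and Creld2. None of these mice is in the Pkd2 +/+ comparison.

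Herpud1 stood at 327, 353 and 276 CPM in noncystic and at 165, 140 and 123 CPM in cystic D17/D17 mice. The groups lay apart, 2.23-fold (log2 fold change -1.16, standard error 0.15, adjusted p = 3.33e-05, edgeR), and the value stayed past the threshold in all 14 alternatives. Creld2, at 83.3, 80.9 and 67.2 CPM against 56.6, 51.3 and 51.9 CPM, fell by 0.53 (standard error 0.09, adjusted p = 0.000289, edgeR) and also stayed past it in all 14. Dnajb9 (-0.37, adjusted p = 0.00334), Dnajc3 (-0.27, adjusted p = 0.0245), Hspa5 (-0.37, adjusted p = 0.0161) and Derl1 (-0.22, adjusted p = 0.0349) fell as well, and none of these 4 passed the threshold with library totals. With a mouse left out, Dnajc3 was also lost without mouse 22, 29 or 30 (adjusted p up to 0.119), and Derl1 without mouse 22, 24, 29 or 30 (adjusted p up to 0.175) and in 3 other alternatives (no cutoff, only the groups compared, Xist added). All 13 chaperones were below 0 here, with a median of -0.17 (-0.24 without mouse 24) that became -0.01 with library totals.

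For Hspa5 the noncystic D17/D17 mice were at 858, 877 and 652 CPM and the cystic ones at 659, 611 and 583 CPM, so that mouse 24 lay among the cystic mice. The call was lost without mouse 22, 23, 29 or 30, not without mouse 24. Ddit3 was at 10.5, 11.8 and 14.7 CPM against 8.85, 11 and 7.46 CPM, which overlapped (-0.44, adjusted p = 0.0658, edgeR), though it passed the threshold without mouse 22 or mouse 29.

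Of the sensors, Eif2ak3 rose, from 39.9, 36.1 and 39.6 CPM to 49, 45 and 48.6 CPM without overlap (0.3, standard error 0.08, adjusted p = 0.013, edgeR), and the call was lost without mouse 23 or mouse 30. The remaining levels in noncystic and cystic D17/D17 mice overlapped. Ern1 was at 26.3, 28.3 and 29.4 against 29.8, 28.4 and 35 CPM, Atf6 at 60.7, 61.2 and 63 against 61.6, 63.5 and 59.5 CPM, Xbp1 at 190, 175 and 175 against 190, 176 and 160 CPM, and Atf4 at 139, 165 and 156 against 167, 164 and 184 CPM. Their log2 fold changes ran from -0.04 (Xbp1) to 0.16 (Atf4).

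Of the Atf4 targets only Phgdh rose, at 70, 52.9 and 62.2 CPM against 94.7, 79 and 69.3 CPM (0.39, standard error 0.13, adjusted p = 0.0396, edgeR). Its groups overlapped, and the call was lost with DESeq2's size factors or without mouse 23, 24, 28 or 29. Psat1 was at 58.6, 50.7 and 50.4 CPM against 61.4, 56.5 and 57.8 CPM (0.14, adjusted p = 0.383), and Asns at 9.05, 9 and 9.79 CPM against 11, 8.22 and 11.3 CPM (0.13, adjusted p = 0.723). Trib3 was at 2.51, 3.82 and 6.33 CPM against 4.52, 4.94 and 3.75 CPM (0.06, interval -0.49 to 0.62), and Chac1 at 1.85, 2.18 and 4.35 CPM against 2.88, 2.49 and 2.36 CPM (-0.11, interval -0.75 to 0.52). Without mouse 24, the highest in both genes, these values were 0.48 (adjusted p = 0.206) for Trib3 and 0.35 (adjusted p = 0.458) for Chac1.

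Other Atf4 and Ddit3 targets had 11 of 29 higher and 4 lower in the D17/D17 mice, with Pmaip1 (2.4), Aldh18a1 (1.14) and Slc7a1 (1.13) leading. Beside this and the next counts, 12.8% of all genes rose and 10.2% fell. Of the aminoacyl-tRNA synthetases 3 of 20 rose (Tars 0.41, Vars 0.37, Iars 0.29), and of the mitochondrial chaperones and proteases 10 of 13 fell. Summed proximal tubule markers were at 10000 to 11100 CPM in the noncystic and 4390 to 5860 CPM in the cystic D17/D17 mice, and macrophage markers at 146 to 181 and 282 to 380 CPM. Their part was not tested here either.

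Whether the effect of cystic disease differed between the genotypes was tested as an interaction. None of the 33 genes passed (0 called), where 0.0122% of all genes did, and 4 of the 33 (12.1%) had an unadjusted p under 0.05, as did 8.33% of all genes. DESeq2's Wald test also called 0, and with no cutoff on low counts 2 passed, Chac1 and Psat1. The 4 with an unadjusted p under 0.05 were all Atf4 targets: Psat1 (-0.48, 95% confidence interval -0.78 to -0.18, adjusted p = 0.331), Chac1 (-1.44, -2.35 to -0.53, adjusted p = 0.335), Trib3 (-1.1, -1.89 to -0.31, adjusted p = 0.408) and Asns (-0.73, -1.33 to -0.13, adjusted p = 0.506). Negative values mean a smaller rise with the deletion. Leaving out mouse 24 brought Chac1 to -0.97 (adjusted p = 0.625) and Trib3 to -0.69 (adjusted p = 0.691), and left Psat1 at -0.52 and Asns at -0.69. A difference between the genotypes was therefore not shown for these genes.

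The deletion was compared directly within the cystic kidneys, D17/D17 against +/+. Of the 33 genes 2 fell, both ER chaperones, and 0 rose, where 1.04% of all genes fell and 1.19% rose. Sdf2l1 stood at 38.5, 41.4 and 39.9 CPM in cystic +/+ and at 28.1, 22 and 22.8 CPM in cystic D17/D17 mice. The groups were apart by a wide gap, and the level was 1.64-fold lower (log2 fold change -0.72, standard error 0.16, adjusted p = 0.028, edgeR). Manf, a secreted ER protein that binds Hspa5, was at 67, 70.9 and 74.7 CPM against 48.7, 51.3 and 53 CPM, 1.39-fold lower without overlap (-0.47, standard error 0.11, adjusted p = 0.0322, edgeR). Both fell under every scaling, but Sdf2l1 was lost without mouse 26, 27, 28, 29 or 30 (adjusted p up to 0.136), and Manf without mouse 26, 27, 28 or 29 (adjusted p up to 0.164) or with Xist, a stand-in for sex, as a covariate (adjusted p = 0.0542).

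**Figure D4:**
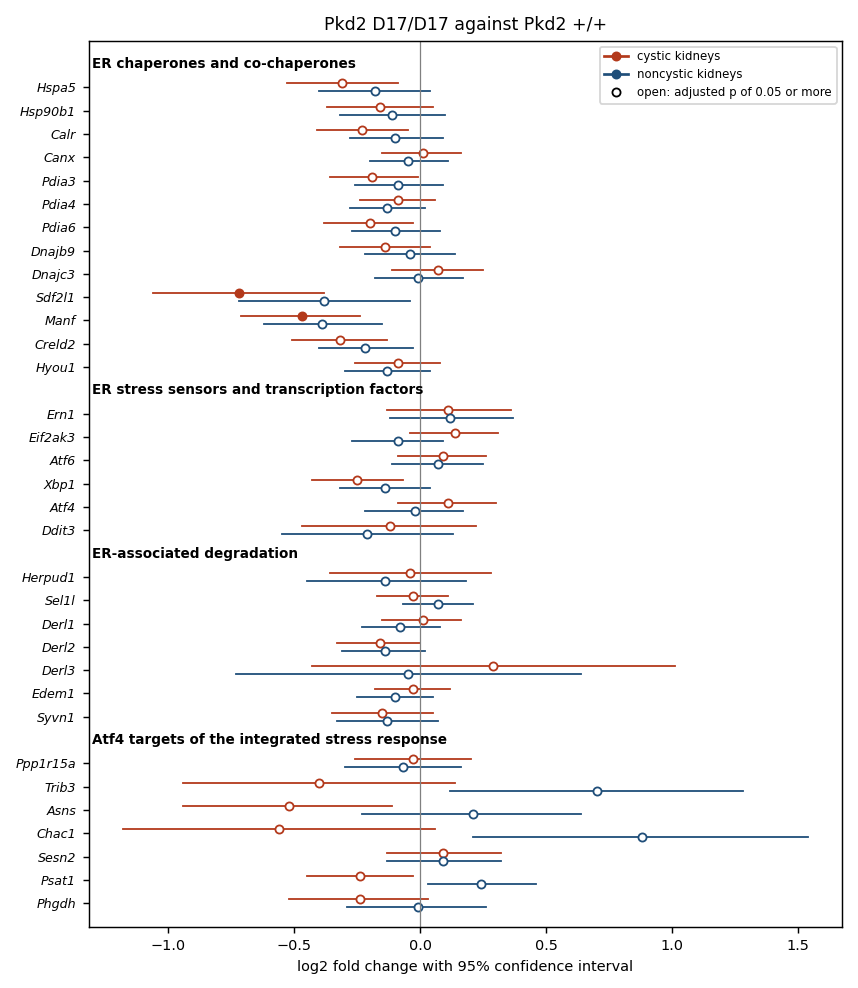
Log2 fold change (x axis) of each of the 33 genes (y axis, by role) between Pkd2 D17/D17 and Pkd2 +/+ kidneys, with 95% confidence intervals; red-brown points are cystic and dark blue points noncystic mice, 3 per group, and filled points have an adjusted p under 0.05. Only Sdf2l1 (-0.72) and Manf (-0.47) in cystic kidneys are filled.

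The other chaperones mostly lay below 0 without passing the test: 11 of the 13 were below 0 in cystic kidneys, with a median of -0.19 against 0 over all genes tested. Creld2 fell short at 70.9, 61.5 and 67 CPM against 56.6, 51.3 and 51.9 CPM (-0.32, adjusted p = 0.0751, edgeR), and Hspa5 at 756, 774 and 761 CPM against 659, 611 and 583 CPM (-0.31, adjusted p = 0.154). The groups did not overlap in either gene, and both passed the threshold in DESeq2's test (adjusted p = 0.0244 and 0.0455) and with no cutoff. Calr (-0.23), Pdia6 (-0.2) and Pdia3 (-0.19) also had groups that did not overlap, with adjusted p from 0.214 to 0.311.

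Genes of the other roles did not pass the test in this comparison. Xbp1 was the lowest of the sensors and transcription factors, at 189, 227 and 210 CPM against 190, 176 and 160 CPM (-0.25, adjusted p = 0.15, edgeR), with overlap. Herpud1, at 179, 112 and 149 CPM against 165, 140 and 123 CPM, had -0.04 (95% confidence interval -0.36 to 0.28), so a change of the size seen with cystic disease lies outside its interval. The Atf4 targets ran from -0.56 (Chac1) to 0.09 (Sesn2), with 6 of 7 below 0 and a median of -0.24. Asns, at 11.7, 15.3 and 16.9 CPM against 11, 8.22 and 11.3 CPM, had -0.52 (adjusted p = 0.215), and it passed only with no cutoff. Trib3 (-0.4, adjusted p = 0.525) and Chac1 (-0.56, adjusted p = 0.411) also had groups that did not overlap, which again does not add to the test.

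Beside these values, summed macrophage markers went from 401 to 528 CPM in cystic +/+ to 282 to 380 CPM in cystic D17/D17 mice, with 3 of 7 markers lower, and 4 of 10 proximal tubule markers rose, with sums of 3300 to 4600 and 4390 to 5860 CPM. The part of these cells in the lower Sdf2l1 and Manf was not tested. Of the further lists, 1 of 25 other folding enzymes fell (Creld1, -0.37), 1 of 22 degradation factors rose (Marchf6, 0.32), 1 of 29 Atf4 and Ddit3 targets rose (Cth, 0.47) and 0 of 20 aminoacyl-tRNA synthetases were called (2 with an unadjusted p under 0.05). Among all genes tested, 1.19% rose and 1.04% fell.

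**Figure D5:**
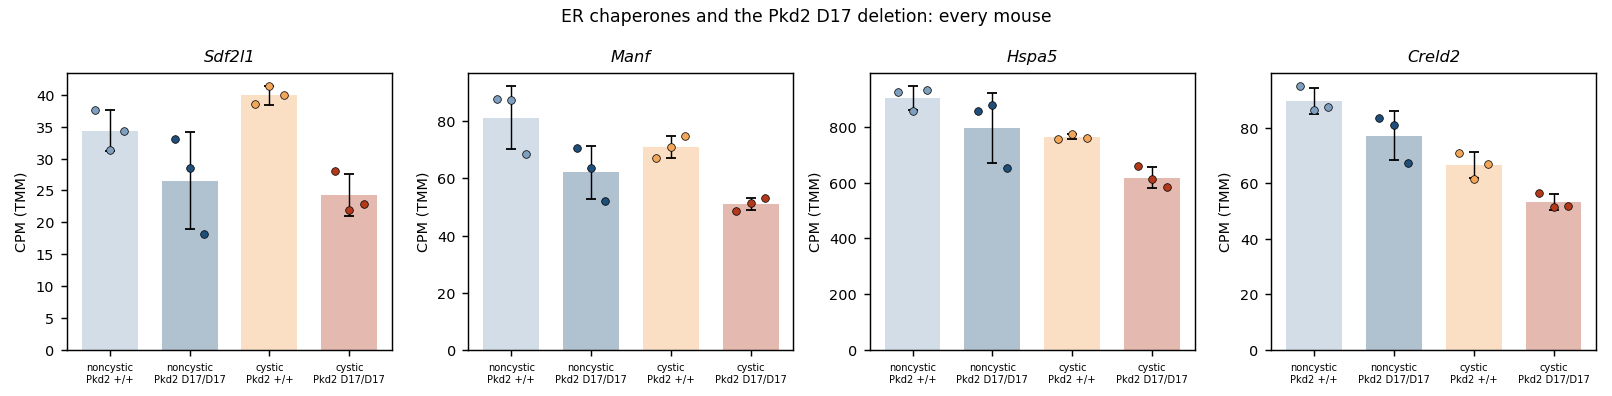
CPM (y axis, TMM-scaled, starting at 0) of 4 ER chaperones in the 4 groups of 3 mice (x axis); points are mice, bars the mean and error bars the SD. In cystic kidneys the D17/D17 mice lie below the +/+ mice in all 4 genes, and in noncystic kidneys mouse 24 is the lowest D17/D17 mouse in all 4.

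In noncystic kidneys the deletion called 0 of the 33 genes in edgeR's test, where 1 gene of all tested was called (0.00406%); 6 of the 33 (18.2%) had an unadjusted p under 0.05, as did 6.31% of all genes, and DESeq2's test also called 0. Without mouse 24 these shares were 6.06% and 4.66%. With no cutoff on low counts 1 was called, Manf. All 13 chaperones were below 0, where 48.6% of all genes were, with a median of -0.11. This rested in part on mouse 24: without it 11 of the 13 were below 0, with a median of -0.05, and Dnajb9 (0.05) and Dnajc3 (0.03) lay above 0. With library totals and all mice Dnajc3 was at 0. Manf stood at 87.8, 87.6 and 68.5 CPM in +/+ and at 70.6, 63.6 and 52.2 CPM in D17/D17 mice, which overlapped (-0.39, 95% confidence interval -0.62 to -0.15, adjusted p = 0.771), and Sdf2l1 at 37.6, 31.3 and 34.3 against 33, 28.5 and 18.1 CPM (-0.38, interval -0.72 to -0.04, adjusted p = 0.771). Without mouse 24 the Sdf2l1 value was -0.16. Trib3 (0.7) and Chac1 (0.88) had positive values that became 0.29 and 0.41 without mouse 24. The comparisons of the deletion in cystic and in noncystic kidneys share no mice, but each shares a group with the comparisons of cystic disease.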

How the data were processed

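Whole-kidney RNA from 12 mice was sequenced. Per the labels and the study's methods, the authors trimmed reads with Trim Galore 0.6.3, aligned them to GRCm38 with STAR 2.5.3a and deposited the raw number of reads per gene (counts, whole numbers, not normalized). The strand setting is not given in the sources used here. All 12 columns were mapped to mice by the labels. Genes listed by identifier alone (343, with 0.0225% of reads) were kept. Each mouse is 1 sample, and no 2 mice of a group agreed within sampling noise (chi-square per degree of freedom 8.88 to 24.3).

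Tests were run in R 4.3.3 using edgeR 4.0.16 (glmQLFit and glmQLFTest, TMM factors, 1 mean per group, 8 residual degrees of freedom, average log2CPM of at least -3), with Benjamini-Hochberg adjustment over 24642 genes at a threshold of 0.05. Intervals are at 95%. The study's own test, limma-trend with library totals (limma 3.58.1), and DESeq2 1.42.0 were alternatives, with those named in the closing section. The code was tested on simulated data. CPM per kb uses exon lengths of GENCODE M21.

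The members and gene lists were chosen with earlier results of these data known. Values of every mouse are given for members called in cystic against noncystic Pkd2 +/+ kidneys or with the deletion in cystic kidneys, and for the 6 sensors and transcription factors, and of each further list at most the 3 genes with the smallest p in each direction are named. Hspa5 in every mouse, and sites of promoters, were added after values were seen.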

Additional observations from a re-analysis of the deposited data

How the results depend on the processing

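The alternatives changed the test (limma-trend with library totals, or DESeq2), the scaling in edgeR (library totals, or size factors of DESeq2), the cutoff (none, or a minimum of 10 counts per mouse), the fit (only the groups compared, or Xist added), the threshold (adjusted p under 0.01, or at least a 1.5-fold change), or left out a mouse. For cystic against noncystic Pkd2 +/+ kidneys (11 genes called) the count was 6 with at least a 1.5-fold change and 9 to 12 with a mouse left out. The split of 5 higher and 6 lower became 9 and 2 with library totals, 10 and 2 with limma-trend, and 5 and 9 with DESeq2. With Pkd2 D17/D17 (8 called) the count was 3 at an adjusted p under 0.01, 1 with at least a 1.5-fold change, and 4 to 7 with a mouse left out, the lowest without mouse 30. For the deletion in cystic kidneys (2 called) it was 4 with DESeq2, 5 with no cutoff, 1 with Xist, 0 at an adjusted p under 0.01, 1 with at least a 1.5-fold change, and 0 to 2 with a mouse left out. With no cutoff it was 1 for the deletion in noncystic kidneys and 2 for the interaction, both otherwise 0. The cause of these shifts was not tested. Of 294 alternative values of the 21 called results, 243 stayed past the threshold, 51 did not and 0 changed sign. Library totals and limma-trend each lost 8 of the 21. No paired analysis was run, because the replicate numbers name single mice and do not link mice of different groups. Low counts limit Derl3, Chac1 and Trib3 most.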
